A study of Mus musculus with 8 samples.

Results

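Gene expression in TTE3 cells after 6 h in bisphenol A (BPA) was compared with that at 0 h. TTE3 is a mouse Sertoli cell line; the transgenic mice it came from express large T antigen of SV40 in a temperature-sensitive form, so the results come from 1 immortalized line. The comparison holds 4 of the 8 arrays of the series: 2 at 0 h and 2 at 6 h, with BPA at 0.2 mM. The other 4 arrays, 2 at 3 h and 2 at 12 h, enter only to show where the 6 h levels lie in the course. BPA, from which polycarbonate plastics and epoxy resins are made, binds estrogen receptors weakly. RNA was hybridized to Affymetrix Mouse Expression 430A arrays, which carry 22690 probe sets. All probe sets with 1 gene symbol were used, with 1 probe set per gene, that of the highest mean log2 signal over the 8 arrays. This gave 12393 genes, of which 8675 passed a filter on low signal and were tested, and 3718 did not pass and have no test.

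Nothing in the labels ties the paired arrays at each time to different cultures. The p-values therefore reflect variation among these samples alone, possibly only technical variation. With 2 arrays a time, that number limits the precision of every value. Arrays without BPA at 6 h were not analysed here, so BPA and time in culture cannot be told apart. The arrays had been scaled to the same trimmed mean signal, 499.96 on each, which hides any change in the total amount of RNA. As a measure of RNA quality, the 3' over 5' ratio of Gapdh controls was 0.735 and 0.779 at 0 h and 0.796 and 0.779 at 6 h, and that of actin 1.15 and 1.14 at 0 h and 1.14 and 1.17 at 6 h. Changes are given on the scale of log2(signal + 7.9), which understates the change of low signals. The ± beside a log2 change is its standard error from the limma model, the ± beside a mean signal is the SD of 2 arrays, and adjusted p-values are Benjamini-Hochberg values over all genes tested. A gene with an adjusted p under 0.05 was called.

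Sertoli cells nurse the germ cells of the seminiferous tubule, form the barrier between tubule and blood, and secrete carrier proteins such as clusterin. When cells are stressed by unfolded protein, lack of amino acids or other insults, kinases phosphorylate the translation factor eIF2, protein synthesis drops, and the mRNA of the transcription factor ATF4 is translated. ATF4, with its partners of the C/EBP family and its target CHOP (encoded by Ddit3), binds composite C/EBP-ATF elements and switches on genes for amino acid supply, redox balance and growth arrest. Immediate early genes, whose products include the AP-1 and EGR factors, need no new protein synthesis for their transcription and are usually shut off again by the feedback inhibitors they induce.

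Of the 339 genes named by rule or by choice, 270 had a promoter window in the RefSeq table of build GRCm38.p6, which was searched on both strands over the 250 bases before each start. The C/EBP-ATF composite, TGATGNAA, was in 3.45% of all 32851 windows. Among genes with a window it was in 13 of the 309 that were called higher by at least 2-fold (4.21%), in 2.59% of 1198 genes called higher, in 2.59% of 694 called lower and in 1.63% of 5206 not called, taking the first start listed for a gene. The windows below show it where the largest risers and the amino acid genes carry it, in capitals and written 5′ to 3′ up to the last base before the start.
Chac1 (chr2:119351032-119351241, plus strand): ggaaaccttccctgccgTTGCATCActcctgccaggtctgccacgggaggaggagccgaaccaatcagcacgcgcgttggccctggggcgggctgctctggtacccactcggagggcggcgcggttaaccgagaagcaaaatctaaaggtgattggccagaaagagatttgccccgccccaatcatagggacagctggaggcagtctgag
Atf3 (chr1:191183334-191183463, minus strand): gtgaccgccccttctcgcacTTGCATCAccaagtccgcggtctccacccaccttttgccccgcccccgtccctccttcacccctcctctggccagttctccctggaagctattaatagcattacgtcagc
Asns (chr6:7693210-7693289, minus strand): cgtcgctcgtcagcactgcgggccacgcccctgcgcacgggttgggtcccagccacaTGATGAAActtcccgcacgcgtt
Slc7a11 (chr3:50443614-50443703, minus strand): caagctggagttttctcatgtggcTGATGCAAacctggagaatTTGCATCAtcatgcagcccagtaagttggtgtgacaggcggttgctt
Gadd45g (chr13:51846555-51846674, plus strand): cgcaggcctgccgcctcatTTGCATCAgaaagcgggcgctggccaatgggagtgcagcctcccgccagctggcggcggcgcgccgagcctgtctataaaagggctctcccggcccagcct
Pck2 (chr14:55540146-55540265, plus strand): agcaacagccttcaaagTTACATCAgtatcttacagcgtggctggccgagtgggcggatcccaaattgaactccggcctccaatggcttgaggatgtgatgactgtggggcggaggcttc
The match began 193 bases before the start in Chac1, 110 in Atf3, 23 in Asns, 101 in Gadd45g and 103 in Pck2, and Slc7a11 had 2 matches in opposite orientation that began 66 and 47 bases before it. Herpud1 and Aars also had a match, whereas the windows of Trib3, Ddit3, Atf4 and Vegfa had none. A match is a description of these letters and not evidence of binding.

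The cyclic AMP response element TGACGTCA, which CREB and ATF proteins bind, was in 1.55% of all windows, in 4.01% of genes called higher, in 2.31% of those called lower and in 2.46% of those not called. It is shown in capitals for Ppp1r15a, whose product GADD34 brings phosphatase to eIF2, and for Plk2 and Clk4, a stress-induced kinase and a splicing kinase.
Ppp1r15a (chr7:45526269-45526518, minus strand): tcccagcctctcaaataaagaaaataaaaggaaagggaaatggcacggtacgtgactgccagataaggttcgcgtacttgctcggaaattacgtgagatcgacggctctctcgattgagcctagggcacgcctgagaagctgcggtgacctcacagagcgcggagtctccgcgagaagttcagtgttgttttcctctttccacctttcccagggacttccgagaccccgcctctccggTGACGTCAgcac
Plk2 (chr13:110394964-110395043, plus strand): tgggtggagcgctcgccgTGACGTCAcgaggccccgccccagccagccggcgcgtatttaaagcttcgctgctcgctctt
Clk4 (chr11:51263034-51263113, plus strand): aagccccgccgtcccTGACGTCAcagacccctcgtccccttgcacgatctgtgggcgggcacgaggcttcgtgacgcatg
For Mt2, a metallothionein with one of the highest signals among the risers, the capitals mark the pattern TGCNCNC. It is looser than the core of the metal response element, which the zinc sensor MTF1 binds, so a match need not be that core. The window of Mt2 held 5 matches. At least 5 were found in 0.344% of all windows and at least 1 in 44.4%.
Mt2 (chr8:94172378-94172617, plus strand): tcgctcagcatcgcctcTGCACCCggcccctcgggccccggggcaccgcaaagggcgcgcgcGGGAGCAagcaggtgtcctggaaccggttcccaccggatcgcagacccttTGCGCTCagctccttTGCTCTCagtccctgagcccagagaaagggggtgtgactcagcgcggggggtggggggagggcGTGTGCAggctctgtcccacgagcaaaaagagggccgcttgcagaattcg

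At 6 h, 1455 genes were called higher and 844 lower, which is 16.8% and 9.73% of the genes tested and 26.5% in all. Each list count below is to be read beside these shares. Changes of at least 2-fold were seen in 386 of the genes called higher and 128 of those called lower. The rises were larger: 64 called genes rose by more than 2 on the log2 scale and 13 by more than 3, whereas 7 fell by more than 2 and 0 by more than 3. Over all genes tested the median log2 change was 0.07. It became -0.03 after quantile normalization, with 1107 genes higher and 1050 lower (51.3% of calls higher against 63.3%), and -0.04 with arrays scaled to the same median, with 1054 higher and 1200 lower (46.8%). The direction in which small changes predominate thus varied with the scaling. Without the first 0 h array 1377 genes were called, and without the second 1379. Both 6 h arrays lay above both 0 h arrays in 36.6% of the genes tested and below them in 25.4%.

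**Figure D1:**
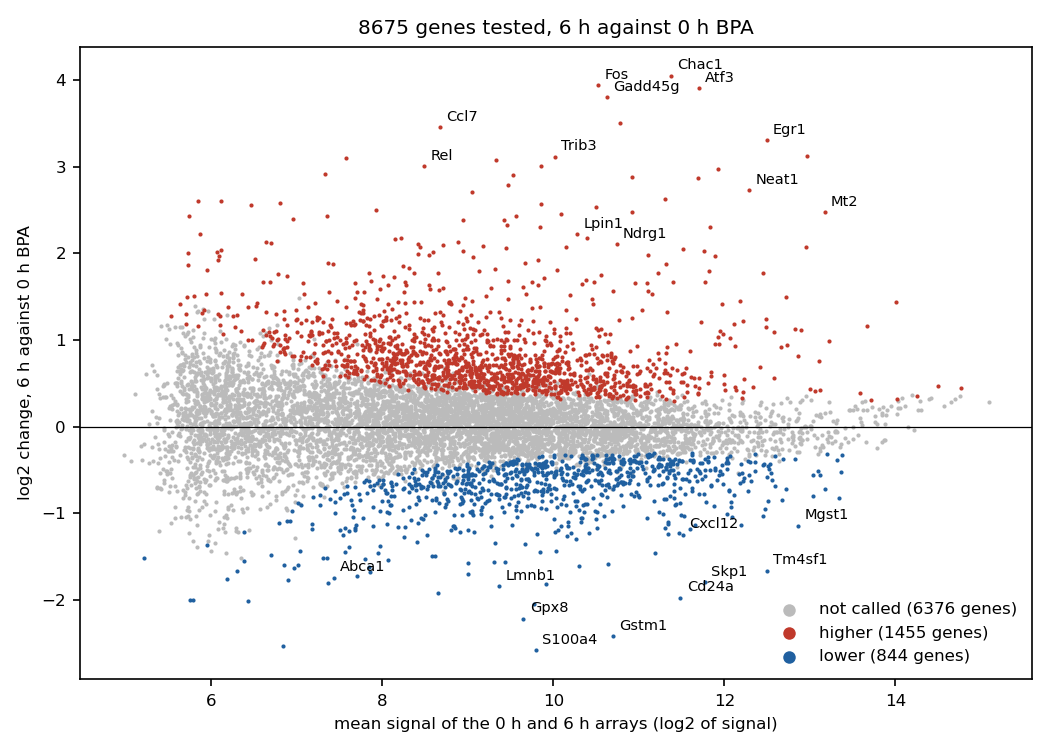
Log2 change from 0 h to 6 h of BPA (vertical axis) against the mean signal of the 4 arrays on a log2 scale (horizontal axis); each point is 1 of the 8675 genes tested, red for the 1455 called higher, blue for the 844 called lower and grey for the rest. Chac1, Fos, Atf3 and Gadd45g lie highest, at changes of 4.05, 3.94, 3.91 and 3.81, and S100a4 lies lowest at -2.58.

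The stress regulators of the ATF4 and CHOP branch made up the list with the largest share of rises. Of these, 19 of 24 tested members were called higher and 0 lower (median log2 change 1.29). Over all genes tested 16.8% were called higher and 9.73% lower, with a median of 0.07. Like every list here, this one was chosen with earlier results of these data known, so its share and rank are no independent evidence. Atf4 itself had signals of 3023 and 3038 at 0 h and 13556 and 12138 at 6 h (log2 change 2.08 ± 0.11, adjusted p = 2.52e-08). Ddit3, which encodes the pro-apoptotic factor CHOP, read 934 and 817 at 0 h and 6739 and 7085 at 6 h (log2 change 2.97 ± 0.11, adjusted p = 1.37e-09). For both genes the groups lay far apart and the pair of arrays within a time close together. Atf3, a stress-induced repressor of the same family, read 417 and 401 at 0 h and 6363 and 6159 at 6 h (log2 change 3.91 ± 0.11, adjusted p = 2.36e-10). Chac1, an enzyme that degrades glutathione, had the largest rise of all genes tested, with 305 and 279.7 at 0 h and 5624 and 4381 at 6 h (log2 change 4.05 ± 0.13, adjusted p = 2.74e-10), a 16.6-fold rise. Trib3, a pseudokinase that binds ATF4 and AKT, read 206 and 211 at 0 h and 1952 and 1786 at 6 h (log2 change 3.12 ± 0.12, adjusted p = 1.37e-09). In these 3 genes every 6 h signal was more than 4-fold the highest 0 h signal. Vegfa, the vascular growth factor, rose by 2.91, and Ppp1r15a and Ddit4, an inhibitor of the growth kinase mTORC1, by 1.92 and 1.98. The 5 members not called included Atf5 (-0.33), Crebrf (-0.26) and the mTORC1 inhibitor Sesn2 (0.12). The other probe set of Crebrf was at 0.47 and that of Sesn2 at 0.79, so the probe sets of these genes differed.

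The chaperones of the endoplasmic reticulum did not move with that group. Among ER chaperones and oxidoreductases 4 of 30 tested members were called higher and 6 lower (median log2 change -0.04). Hspa5, which encodes the chaperone BiP, had signals of 7256 and 7389 at 0 h and 10848 and 8715 at 6 h (log2 change 0.41 ± 0.13, adjusted p = 0.0364), and Xbp1 of 1521 and 1784 at 0 h and 2031 and 2506 at 6 h (log2 change 0.45 ± 0.12, adjusted p = 0.0171). Both calls were near the threshold: they were lost for Hspa5 without either 0 h array or the first 6 h array (adjusted p up to 0.229) and for Xbp1 without the first 0 h array or the second 6 h array (adjusted p up to 0.179). With the mean log2 signal of all probe sets of a gene, here called the probe set mean, the call was also lost for Xbp1 (0.27, adjusted p = 0.104). Without the first 0 h array, and with arrays scaled to the same median, 2 members of the list were called higher. Herpud1, which helps remove misfolded protein from the ER, read 572 and 634 at 0 h and 1572 and 1920.4 at 6 h (log2 change 1.52 ± 0.15, adjusted p = 1.09e-05), and the oxidase Ero1a 226 and 300.3 at 0 h and 775 and 709 at 6 h (log2 change 1.48 ± 0.15, adjusted p = 1.69e-05). The 6 members called lower included the translocon subunit Sec61b (-0.82), the ubiquitin ligase Syvn1 (-0.70) and the lectin chaperone Calr (-0.69).

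For the cytosolic heat shock proteins, 3 of 21 tested members were called higher and 1 lower (median log2 change 0.08), near the share over all genes. Hsph1, a nucleotide exchange factor for HSP70, rose by 1.08 and Chordc1, an HSP90 partner, by 0.64, while the small heat shock protein Cryab fell by 1.23. Of eIF2 kinases and initiation factors, 5 of 25 tested members were called higher and 1 lower (median log2 change 0.01). The helicase Eif4a2 read 1429 and 1476 at 0 h and 3194 and 4168 at 6 h (log2 change 1.32 ± 0.12, adjusted p = 6.61e-06). The higher count of this list was 2 without either of the 0 h arrays and 3 without the first 6 h array, and 2 with arrays scaled to the same median.

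Some amino acid genes rose. Among amino acid synthesis and one-carbon enzymes 5 of 17 tested members were called higher and 1 lower (median log2 change 0.08). Asns, asparagine synthetase, read 657 and 723 at 0 h and 2354 and 2301 at 6 h (log2 change 1.75 ± 0.11, adjusted p = 1.49e-07) and Mthfd2, a mitochondrial folate enzyme, 684 and 564 at 0 h and 2260.4 and 1809 at 6 h (log2 change 1.69 ± 0.15, adjusted p = 4.06e-06). For both genes the 6 h arrays lay above the 0 h arrays, as they did in 36.6% of all genes tested. Glul, glutamine synthetase, was called lower at -0.66. Its call was lost without the first 0 h array or the first 6 h array (adjusted p up to 0.0921). The higher count was 3 without either 0 h array, without the second 6 h array and under both other scalings. Pck2, mitochondrial PEP carboxykinase and a member of the list of TCA cycle and mitochondrial carriers, rose by 0.94. In that list 3 of 27 tested members were called higher and 1 lower (median log2 change -0.03).

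Of the amino acid transporters, 6 of 14 tested members were called higher and 3 lower (median log2 change 0.27). That compares with 16.8% called higher and 9.73% lower over all genes tested. The 2 chains of the large neutral amino acid exchanger rose together: Slc7a5 read 346 and 437 at 0 h and 1183 and 1226 at 6 h (log2 change 1.61 ± 0.14, adjusted p = 4.56e-06) and its heavy chain Slc3a2 1533 and 1686 at 0 h and 5741 and 5480.5 at 6 h (log2 change 1.80 ± 0.12, adjusted p = 2.15e-07). Slc7a11, the cystine importer that shares this heavy chain, rose from low signals, 18.7 and 55.8 at 0 h and 159.8 and 182 at 6 h (log2 change 2.11 ± 0.37, adjusted p = 0.00104), and Slc1a4, a transporter of alanine, serine and cysteine, by 1.31. The taurine transporter Slc6a6 was called lower (-0.93), as was Slc38a2 (-0.54), a carrier of small neutral amino acids. These 2 calls were lost for Slc6a6 without the second 0 h array (adjusted p = 0.091) and for Slc38a2 without either 0 h array or the first 6 h array (adjusted p up to 0.135).

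Aminoacyl-tRNA synthetases, which charge tRNAs, showed small rises: 11 of 23 tested members were called higher and 1 lower (median log2 change 0.28). The share called higher over all genes tested was 16.8%, and that called lower 9.73%. Tars2, the mitochondrial threonine enzyme, read 361 and 349 at 0 h and 583 and 659.5 at 6 h (log2 change 0.79 ± 0.14, adjusted p = 0.000839), and Aars, the alanine enzyme, rose by 0.61. Xpot, which exports tRNA from the nucleus, went the other way at -0.86. The higher count of this list was 7 without the first and 3 without the second 0 h array, 7 without the first 6 h array, and 6 with arrays scaled to the same median. The call of Aars was lost without the second 0 h array (adjusted p = 0.0735).

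Most immediate early transcription factors tested were above their 0 h level at 6 h, against 16.8% of all genes called higher. Among AP-1, EGR and other immediate early factors 18 of 28 tested members were called higher and 1 lower (median log2 change 0.92). Fos, an AP-1 subunit, read 184 and 163 at 0 h and 2881 and 2674 at 6 h (log2 change 3.94 ± 0.12, adjusted p = 2.36e-10), and Junb, its partner, 219.7 and 133 at 0 h and 1355 and 1124 at 6 h (log2 change 2.79 ± 0.23, adjusted p = 1.94e-06). Egr1, a zinc finger factor induced by growth factors, read 995 and 1102 at 0 h and 11507 and 9475 at 6 h (log2 change 3.31 ± 0.15, adjusted p = 5.86e-09). In each of these 3 the lower 6 h array was above 4 times the higher 0 h array. Klf10 rose by 3.51 and Ier2 by 2.87. The member that fell was Klf9, a glucocorticoid-induced factor, with 1905 and 2099 at 0 h and 1185 and 1268 at 6 h (log2 change -0.70 ± 0.12, adjusted p = 0.000687), though the mean of all its probe sets gave 0.008.

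Growth factor genes had rises and no called fall, and 11 of 16 were not called. In this list of EGF receptor ligands and other growth factor genes, 5 of 16 tested members were called higher and 0 lower (median log2 change 0.40). Over all genes tested 16.8% were called higher. The members that rose were Vegfa, the bone morphogenetic protein Bmp2 (1.77), the cytokine Lif (1.69), the EGF receptor ligand Hbegf (1.25) and the receptor Egfr itself (1.08). Egfr read 643 and 676 at 0 h and 1424 and 1379.8 at 6 h (log2 change 1.08 ± 0.12, adjusted p = 2.07e-05).

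The feedback inhibitors of growth factor signalling went in both directions: 10 of 21 tested members were called higher and 3 lower (median log2 change 0.41). Errfi1, which binds and blocks the EGF receptor, read 428 and 408 at 0 h and 2425 and 2514 at 6 h (log2 change 2.54 ± 0.10, adjusted p = 2.93e-09). Socs2, an inhibitor of cytokine signalling, read 26.3 and 37.9 at 0 h and 312 and 269.5 at 6 h (log2 change 2.91 ± 0.25, adjusted p = 2.41e-06), so its 0 h signals were close to background. Rgs2, an inhibitor of G protein signalling, rose by 2.40. Its 0 h signals, 34.0 and 32.3, were also close to background, against 162.9 and 267.5 at 6 h. Spry1, an inhibitor of the RAS pathway, rose by 1.42. The 3 members that fell were Socs5 (-0.56) and the MAP kinase phosphatases Dusp10 (-0.49) and Dusp1 (-0.34). These 3 calls were lost for Socs5 without the second 0 h array or the second 6 h array (adjusted p up to 0.147), for Dusp10 without either 0 h array or the second 6 h array (adjusted p up to 0.129) and for Dusp1 without either 0 h array or the second 6 h array (adjusted p up to 0.183), and under the probe set mean for Dusp10 (-0.70, adjusted p = 0.124). Without the first 0 h array the higher count was 5.

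Among mRNA decay and silencing factors 7 of 19 tested members were called higher and 4 lower (median log2 change 0.18). Zfp36, which destabilizes AU-rich mRNAs, read 249 and 182 at 0 h and 1362 and 958 at 6 h (log2 change 2.38 ± 0.18, adjusted p = 9.66e-07), and its relative Zfp36l1 rose by 1.06. The lower calls fell on microRNA effectors: Tnrc6b (-0.83), Tnrc6a (-0.82) and Ago2 (-0.53), with the translational repressor Pum2 (-0.49). Calls were lost for Tnrc6a without either 0 h array or the second 6 h array (adjusted p up to 0.243), for Ago2 without either 0 h array or the second 6 h array (adjusted p up to 0.173) and for Pum2 without the first 0 h array (adjusted p = 0.0721). The lower count was 1 and 2 without the first and the second 0 h array and 2 without the second 6 h array. Of the MYC network and polyamine genes, 4 of 17 tested members were called higher and 2 lower (median log2 change 0.13). Myc read 928 and 977 at 0 h and 2949.8 and 3069 at 6 h (log2 change 1.65 ± 0.10, adjusted p = 1.56e-07) and Odc1, the first enzyme of polyamine synthesis, 1122 and 1142 at 0 h and 4658 and 4771 at 6 h (log2 change 2.05 ± 0.11, adjusted p = 2.52e-08). Mxd4, an antagonist of MYC, fell by 1.21, and Sat1, which starts polyamine breakdown, was lower at -0.60, a call that was lost without the first 0 h array (adjusted p = 0.0527).

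**Figure D2:**
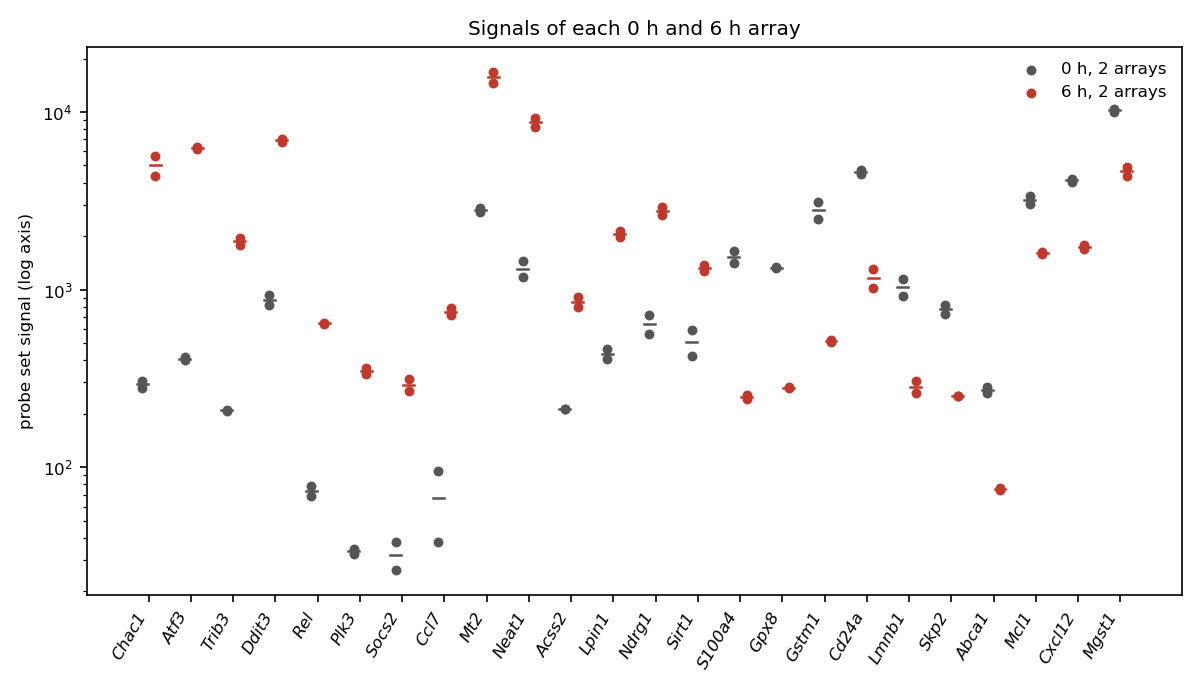
Probe set signals (log axis) of 24 genes on each of the 2 arrays at 0 h (grey points) and at 6 h (red points); short lines are the means of 2 arrays. For the genes from Chac1 to Sirt1 both red points lie above both grey points, and for those from S100a4 to Mgst1 both lie below.

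Growth arrest and DNA damage genes had more called rises than falls, and cell cycle genes went both ways. All genes tested also had more rises than falls, with 16.8% called higher and 9.73% lower. Among p53 and its targets 14 of 26 tested members were called higher and 5 lower (median log2 change 0.54). All 3 GADD45 genes, whose products bind stress kinases and cell cycle proteins, rose: Gadd45g read 213 and 195 at 0 h and 2983 and 2928 at 6 h (log2 change 3.81 ± 0.12, adjusted p = 2.74e-10), Gadd45a 205 and 192 at 0 h and 1568 and 1743 at 6 h (log2 change 3.01 ± 0.12, adjusted p = 2.74e-09) and Gadd45b 1245 and 1197 at 0 h and 6706 and 5457 at 6 h (log2 change 2.30 ± 0.12, adjusted p = 2.22e-08). The polo-like kinase Plk3 rose from low signals, 34.7 and 32.3 at 0 h and 334 and 361 at 6 h (log2 change 3.10 ± 0.20, adjusted p = 1.89e-07). Plk2 rose by 2.02 and Mdm2, the ubiquitin ligase of p53, by 1.67. Cdkn1a, the cell cycle inhibitor p21, read 3615 and 4203 at 0 h and 6223 and 5213 at 6 h (log2 change 0.55 ± 0.12, adjusted p = 0.00517), a call that was lost without the first 0 h array (adjusted p = 0.0783). The 5 members called lower were Ccng2, Trp53inp1, Sesn1, Zmat3 and Ei24, between -0.68 and -0.33. That lower count was 1 without either 0 h array and 2 without the first 6 h array; calls were lost for Trp53inp1 without either 0 h array or the first 6 h array (adjusted p up to 0.187), for Sesn1 without either 0 h array or the second 6 h array (adjusted p up to 0.16), for Zmat3 without either 0 h array or the first 6 h array (adjusted p up to 0.175) and for Ei24 without either 0 h array or either 6 h array (adjusted p up to 0.176). Under the probe set mean it was lost for Trp53inp1 (-0.32, adjusted p = 0.0886).

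Cyclins and CDK inhibitors had more falls than rises: 5 of 34 tested members were called higher and 9 lower (median log2 change -0.09). That is 14.7% and 26.5%, against 16.8% and 9.73% over all genes tested. Ccne2, a cyclin of entry into S phase, read 312 and 346 at 0 h and 73.6 and 159 at 6 h (log2 change -1.53 ± 0.31, adjusted p = 0.0028), and the CDK inhibitor Cdkn2c 1693 and 1813 at 0 h and 774 and 849 at 6 h (log2 change -1.10 ± 0.12, adjusted p = 1.89e-05). Its relative Cdkn2b went up, with 2371 and 2584 at 0 h and 7283 and 6343 at 6 h (log2 change 1.45 ± 0.11, adjusted p = 7.03e-07). Ccnd1, cyclin D1, had 836 and 806 at 0 h and 686 and 549.8 at 6 h (log2 change -0.41 ± 0.14, adjusted p = 0.0466), a call that was lost without either 0 h array or the second 6 h array (adjusted p up to 0.258). Without either 0 h array 5 members were called lower, and without the first 3 were called higher. The proliferation marker Mki67 read 1247 and 1122 at 0 h and 1263 and 1109 at 6 h (log2 change 0.00 ± 0.14, adjusted p = 0.998), so its groups overlapped. Of 45 DNA replication and mitosis genes tested, 5 were called higher and 3 lower (median 0.02). Tk1, thymidine kinase, fell by 1.15, and Cdc6, which loads the replicative helicase, rose by 0.71. The higher count was 3 and 2 without the first and the second 0 h array, and 3 with arrays scaled to the same median.

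In the BCL2 family and caspases, 4 of 24 tested members were called higher and 3 lower (median log2 change 0.01). Mcl1, a survival protein, read 3047 and 3371 at 0 h and 1630.2 and 1589.5 at 6 h (log2 change -0.99 ± 0.14, adjusted p = 0.000277), and the executioner caspase Casp6 1554 and 1346 at 0 h and 686 and 560.2 at 6 h (log2 change -1.21 ± 0.15, adjusted p = 8.39e-05). The pro-apoptotic genes Pmaip1 and Bbc3 rose by 1.15 and 0.74, whereas Bcl2l11, also pro-apoptotic, was lower at -0.71. The call of Bbc3 was lost without the first 0 h array or the second 6 h array (adjusted p up to 0.117), and under the probe set mean that of Bcl2l11 (-0.30, adjusted p = 0.224). The higher count was 2 without either 0 h array or the second 6 h array.

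NF-kB genes had rises and no called fall, and 12 of 22 were not called: among subunits, inhibitors and targets 10 of 22 tested members were called higher and 0 lower (median log2 change 0.52). Rel, a subunit, read 77.8 and 68.9 at 0 h and 638 and 650.5 at 6 h (log2 change 3.01 ± 0.15, adjusted p = 2.42e-08). Ptgs2, the inducible cyclooxygenase, read 209 and 246 at 0 h and 1136 and 1212 at 6 h (log2 change 2.33 ± 0.18, adjusted p = 8.4e-07), and the inhibitor Nfkbia, which holds NF-kB in the cytoplasm, 2524 and 2482 at 0 h and 5511 and 5273 at 6 h (log2 change 1.10 ± 0.12, adjusted p = 2.04e-05). None of these groups overlapped, but both 6 h arrays lay above both 0 h arrays in 36.6% of all genes tested. The share called higher over all genes tested was 16.8%. Tnfaip3, a further inhibitor, rose by 1.83 and the subunit Relb by 1.33. Among chemokines and cytokines 6 of 17 tested members were called higher and 1 lower (median log2 change 0.06). Ccl7, which attracts monocytes, read 95.4 and 38.1 at 0 h and 785 and 715 at 6 h (log2 change 3.46 ± 0.28, adjusted p = 1.68e-06), Ccl2 464 and 374 at 0 h and 1213 and 1220.5 at 6 h (log2 change 1.53 ± 0.14, adjusted p = 4.85e-06) and Cxcl10, an interferon-induced chemokine, 81.8 and 126 at 0 h and 448 and 532 at 6 h (log2 change 2.18 ± 0.24, adjusted p = 2.88e-05). Cxcl12, the ligand of CXCR4, was the one that fell, with 4039.6 and 4213 at 0 h and 1696 and 1772 at 6 h (log2 change -1.25 ± 0.11, adjusted p = 3.63e-06). Of STAT, IRF and interferon genes, 5 of 26 tested members were called higher and 2 lower (median log2 change 0.13), with Stat2 at 1.63 and Irf1 at 1.34. Without the first 0 h array 3 of them were called higher.

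Lipid synthesis genes had many called rises, against 16.8% over all genes tested. For cholesterol synthesis and uptake 16 of 27 tested members were called higher and 1 lower (median log2 change 0.65). Stard4, a sterol carrier, read 1010.4 and 1082 at 0 h and 3035 and 3641 at 6 h (log2 change 1.66 ± 0.12, adjusted p = 4.19e-07), and the enzymes Mvd 662 and 679.7 at 0 h and 2491 and 1873 at 6 h (log2 change 1.68 ± 0.14, adjusted p = 1.8e-06) and Lss 1206 and 1116 at 0 h and 3464 and 3292 at 6 h (log2 change 1.53 ± 0.12, adjusted p = 1.15e-06). For each of these the 6 h arrays stood above the 0 h arrays by more than the arrays of a time differed. Srebf2, the master regulator of the pathway, read 1544 and 1548 at 0 h and 2304 and 2154 at 6 h (log2 change 0.53 ± 0.10, adjusted p = 0.0024). Under the probe set mean the call was lost for Srebf2 (0.22, adjusted p = 0.188). Srebf1 was at -0.02 (adjusted p = 0.925). The one fall was that of Abca1, the pump that removes cholesterol from cells, with 261 and 281 at 0 h and 76.3 and 74.2 at 6 h (log2 change -1.74 ± 0.29, adjusted p = 0.000733).

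Of fatty acid and phospholipid synthesis genes, 11 of 26 tested members were called higher and 1 lower (median log2 change 0.35). Acss2, which makes acetyl-CoA from acetate, read 212 and 213 at 0 h and 904 and 801 at 6 h (log2 change 1.96 ± 0.14, adjusted p = 4.04e-07), and Fasn, fatty acid synthase, 3555 and 3584 at 0 h and 8002 and 7798 at 6 h (log2 change 1.14 ± 0.11, adjusted p = 8.27e-06). Lpin1, a phosphatidate phosphatase, rose by 2.23 and is described with the steps between times. Pcyt2, of phosphatidylethanolamine synthesis, rose by 1.57, while Etnk1, of the same pathway, was lower at -0.74, a call that was lost without either 0 h array or the first 6 h array (adjusted p up to 0.0947).

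Metallothioneins, which bind zinc and copper, rose strongly. Mt2 read 2741 and 2865 at 0 h and 16812 and 14534 at 6 h (log2 change 2.48 ± 0.11, adjusted p = 5.39e-09) and Mt1 9299.5 and 8274 at 0 h and 27036 and 21021 at 6 h (log2 change 1.44 ± 0.13, adjusted p = 5.08e-06). Over metallothioneins and zinc transporters 4 of 14 tested members were called higher and 1 lower (median log2 change 0.11). The glutathione S-transferases, which conjugate electrophiles, moved the other way: 0 of 16 tested members were called higher and 6 lower (median log2 change -0.68). Gstm1 had the largest of these falls, with 2501 and 3109 at 0 h and 507 and 522 at 6 h (log2 change -2.42 ± 0.13, adjusted p = 4.75e-08), though its probe set can bind several transcripts of the family. Gstp1 read 7383 and 7681 at 0 h and 3792 and 3587 at 6 h (log2 change -1.03 ± 0.11, adjusted p = 1.84e-05) and the microsomal Mgst1 10016 and 10458 at 0 h and 4898 and 4378 at 6 h (log2 change -1.14 ± 0.11, adjusted p = 5.84e-06). The 10 members not called reached up to Gstm4, at 0.03. Without either 0 h array 3 members were called lower.

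The NRF2 antioxidant targets did not follow one direction: 5 of 27 tested members were called higher and 4 lower (median log2 change -0.04). Osgin1 read 724 and 811 at 0 h and 2124 and 2004 at 6 h (log2 change 1.42 ± 0.11, adjusted p = 1.43e-06) and Hmox1, heme oxygenase, 404 and 358 at 0 h and 567 and 791 at 6 h (log2 change 0.80 ± 0.18, adjusted p = 0.00496). Its call was lost without the second 0 h array (adjusted p = 0.0534), where 3 members of the list were called higher. Prdx2, a peroxidase, fell by 0.74, Nqo1 was lower at -0.51 and Nfe2l2, the gene of NRF2, had 2249.7 and 2238 at 0 h and 2342 and 2870.1 at 6 h (log2 change 0.21 ± 0.12, adjusted p = 0.212). The call of Nqo1 was lost without either 0 h array or the second 6 h array (adjusted p up to 0.22). The lower count was 1 and 2 without the first and the second 0 h array and 8 with arrays scaled to the same median. Of 9 tested aryl hydrocarbon receptor targets and cytochromes P450, 2 were called higher and 4 lower. Tiparp, a repressor of that receptor, rose by 1.77, and Akr1cl and Aldh3a1, an aldo-keto reductase and an aldehyde dehydrogenase, fell by 2.04 and 1.16. Ahr itself was at 0.33 (adjusted p = 0.131).

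Estrogen receptors were at background on this array. Esr1 had signals of 11.1 and 39.1 at 0 h and 5.4 and 20.8 at 6 h and Esr2 of 32.3 and 14.4 at 0 h and 18.2 and 16.4 at 6 h, and neither passed the filter. The related orphan receptors Esrra and Esrrg, of which the latter is known to bind BPA, read 303 and 334 at 0 h and 303 and 337 at 6 h (log2 change 0.01 ± 0.15, adjusted p = 0.982) and 76.4 and 81.2 at 0 h and 84.3 and 129.7 at 6 h (log2 change 0.38 ± 0.30, adjusted p = 0.392). Neither of these was called. Over steroid and other nuclear receptors 5 of 24 tested members were called higher and 1 lower (median log2 change 0.12), with the glucocorticoid receptor Nr3c1 at 0.60, the corepressor Nrip1 at 0.87 and the thyroid receptor Thra at -0.47. Without the first array of either time 3 were called higher. Calls were lost for Nr3c1 without the second 0 h array (adjusted p = 0.055), for Nrip1 without the first 0 h array or the first 6 h array (adjusted p up to 0.0669) and for Thra without either 0 h array or the second 6 h array (adjusted p up to 0.136). The probe set mean ended those of Nr3c1 (0.38, adjusted p = 0.0707) and Thra (-0.38, adjusted p = 0.128).

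Among splicing factors and their kinases, 12 of 31 tested members were called higher and 4 lower (median log2 change 0.30). Clk4 read 298 and 235 at 0 h and 1128 and 1137 at 6 h (log2 change 2.06 ± 0.14, adjusted p = 2.15e-07) and Tra2b 2782 and 2470.3 at 0 h and 5391 and 5596 at 6 h (log2 change 1.06 ± 0.10, adjusted p = 1.03e-05). The lower calls were all on SR proteins, Srsf5, Srsf1, Srsf6 and Srsf9, between -0.50 and -0.35. The related Srsf4 rose by 0.83. The lower count was 1 without the first array of either time and 0 without the second 0 h array, and calls were lost for Srsf1 without the second 0 h array or the first 6 h array (adjusted p up to 0.237), for Srsf5 without either 0 h array or the first 6 h array (adjusted p up to 0.151), for Srsf6 without either 0 h array or the second 6 h array (adjusted p up to 0.108) and for Srsf9 without either 0 h array or the first 6 h array (adjusted p up to 0.329). The probe set mean ended that of Srsf6 (-0.11, adjusted p = 0.462). Of 35 ribosome biogenesis genes, 12 were called higher and 2 lower (median 0.27), with Nop14 at 1.05 and Nop16 at -1.06. Under the probe set mean the call was lost for Nop16 (-0.42, adjusted p = 0.548). The higher count was 6 without the second 0 h array and 7 with arrays scaled to the same median. Of 22 cytosolic ribosomal protein genes, 2 were called higher and 0 lower (median 0.16). Of 36 mitochondrial ones, 2 were called higher and 3 lower (median 0.03), among them Mrpl18, with 1592 and 1421 at 0 h and 346 and 512 at 6 h (log2 change -1.82 ± 0.17, adjusted p = 7.99e-06).

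Noncoding RNAs, chosen after their values were seen except Neat1, were among the rises. Neat1, the scaffold of nuclear paraspeckles, read 1442 and 1183 at 0 h and 9232 and 8223 at 6 h (log2 change 2.73 ± 0.12, adjusted p = 5.39e-09). The snoRNA host genes Snhg1, Snhg5 and Gas5 read 1169 and 1012 at 0 h and 4226 and 3825 at 6 h, 452 and 425 at 0 h and 1479.6 and 1435 at 6 h, and 2362 and 1925 at 0 h and 4166 and 2711 at 6 h, with log2 changes of 1.88, 1.72 and 0.65. The call of Gas5 was lost without the second 0 h array or the first 6 h array (adjusted p up to 0.136), and under the probe set mean for Gas5 (0.10, adjusted p = 0.684). Pvt1, a neighbour of Myc, rose by 2.44, while its dimmer probe sets were at 0.98 and -0.41. Of chromatin and histone modifying genes, 8 of 46 tested members were called higher and 3 lower (median log2 change 0.11). The higher share, 17.4%, was near the 16.8% of all genes tested. Sirt1, a deacetylase, read 425 and 592 at 0 h and 1269 and 1379 at 6 h (log2 change 1.39 ± 0.22, adjusted p = 0.000486), and the acetyltransferase Kat2b fell by 0.69. Without either 0 h array, or with the same median, 5 were called higher. The linker histone gene H1f2 read 727 and 658 at 0 h and 3937 and 4765 at 6 h (log2 change 2.63 ± 0.12, adjusted p = 1.2e-08). In the circadian clock, 6 of 15 tested members were called higher and 1 lower (median log2 change 0.38), with Nfil3 at 2.57, Bhlhe40 at 2.30 and Arntl, the gene of BMAL1, at 1.36.

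Surface proteins had many falls and no called rise, against 16.8% called higher and 9.73% lower over all genes tested. Among tetraspanins and other surface proteins 0 of 27 tested members were called higher and 12 lower (median log2 change -0.29). Cd24a, a glycosylated adhesion protein, read 4448 and 4698 at 0 h and 1018 and 1313 at 6 h (log2 change -1.98 ± 0.13, adjusted p = 2.77e-07), Tm4sf1 8813 and 8779.5 at 0 h and 3145 and 2445 at 6 h (log2 change -1.66 ± 0.12, adjusted p = 5.94e-07) and the tetraspanin Cd9 1374 and 1328 at 0 h and 526 and 453 at 6 h (log2 change -1.45 ± 0.15, adjusted p = 1.54e-05). In all 3 every 6 h array lay below 0.5 of the lower 0 h array. The list was chosen with earlier results of these data known, so its direction is no independent evidence. Falls outside any list, chosen after their values were seen, included those of S100a4, a calcium-binding protein of motile cells, with 1639 and 1417 at 0 h and 240.4 and 255 at 6 h (log2 change -2.58 ± 0.14, adjusted p = 4.97e-08), the ER peroxidase Gpx8, with 1341 and 1316 at 0 h and 278 and 281 at 6 h (log2 change -2.22 ± 0.15, adjusted p = 2.49e-07), and Lmnb1, which encodes lamin B1, with 1152 and 923 at 0 h and 262 and 304 at 6 h (log2 change -1.84 ± 0.16, adjusted p = 2.94e-06).

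Extracellular matrix genes had falls: 2 of 35 tested members were called higher and 10 lower (median log2 change -0.17). Over all genes tested 16.8% were called higher and 9.73% lower. Dcn, decorin, read 8440.4 and 8423 at 0 h and 5306 and 4892 at 6 h (log2 change -0.73 ± 0.11, adjusted p = 0.000418) and Col1a1, collagen I, 1037 and 914 at 0 h and 572 and 546 at 6 h (log2 change -0.79 ± 0.13, adjusted p = 0.000621). The other Col1a1 probe set was at 0.22, and under the probe set mean the call was lost for Col1a1 (-0.28, adjusted p = 0.157). Timp1, a protease inhibitor, fell by 0.95, whereas the collagenase Mmp13 rose by 1.56. Without the second 0 h array 6 of the list were called lower. Of actin cytoskeleton and integrin genes, 4 of 38 tested members were called higher and 9 lower (median log2 change -0.15). The lower count was 5 and 4 without the first and the second 0 h array and 14 with the same median, and the higher count was 2 without the first array of either time and under both other scalings.

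YAP and TEAD targets were split: 4 of 18 tested members were called higher and 4 lower (median log2 change -0.01). Ccn1, a matricellular protein, read 2893 and 2840.5 at 0 h and 6173 and 7181 at 6 h (log2 change 1.21 ± 0.12, adjusted p = 1.03e-05), while Ccn2, its relative, had 1959 and 1596 at 0 h and 1977 and 1673 at 6 h (log2 change 0.04 ± 0.13, adjusted p = 0.853) and overlapping groups. Tead1 rose by 1.94 and Yap1 was called lower (-0.52), a call that was lost without either 0 h array or the first 6 h array (adjusted p up to 0.111). It was also lost under the probe set mean, for Yap1 (-0.05, adjusted p = 0.795). The lower count was 2 and 1 without the first and the second 0 h array and 2 without the first 6 h array. In the list of TGF-beta, BMP and inhibitor of DNA binding genes, 9 of 28 tested members were called higher and 4 lower (median log2 change 0.09). Id3 read 3316 and 3455 at 0 h and 9257 and 6935 at 6 h (log2 change 1.24 ± 0.14, adjusted p = 3.02e-05) and Id1 1035 and 1047 at 0 h and 2527 and 2383 at 6 h (log2 change 1.23 ± 0.16, adjusted p = 0.0001); both encode inhibitors of bHLH factors. Fstl1, a secreted BMP antagonist, fell by 1.10. Without the first 0 h array 4 were called higher, and without either 0 h array 2 were called lower. Of 27 Notch, Wnt and Hedgehog genes, 0 were called higher and 3 lower (Fzd2 at -1.57, Fzd6 at -0.71 and Sfrp2 at -0.61).

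Genes of the respiratory chain and ATP synthase had falls and no called rise: 0 of 33 tested members were called higher and 11 lower (median log2 change -0.28). Sdhc and Sdhd, the membrane anchors of succinate dehydrogenase, read 1796 and 1706 at 0 h and 668 and 754 at 6 h (log2 change -1.29 ± 0.14, adjusted p = 2.37e-05) and 1983 and 2074 at 0 h and 829 and 965 at 6 h (log2 change -1.17 ± 0.12, adjusted p = 1.34e-05), and Ndufb3 of complex I 1938 and 1908 at 0 h and 823 and 809 at 6 h (log2 change -1.23 ± 0.12, adjusted p = 6.74e-06). The arrays of the 2 times did not overlap in these genes, but both 6 h arrays lay below both 0 h arrays in 25.4% of all genes tested. Without the first 0 h array 7 were called lower. Of 32 proteasome subunits, 0 were called higher and 6 lower (median -0.16; 10 lower with the same median), with Psma5 at -0.86 and Psma2 at -0.74. Under the probe set mean the call was lost for Psma5 (-0.68, adjusted p = 0.0652). The assembly factor Pomp fell by 1.25. Among ubiquitin ligases, F-box and cullin genes, 6 of 27 tested members were called higher and 3 lower (median log2 change 0.07). Skp1, the adaptor of SCF ligases, read 5807 and 5091 at 0 h and 1524 and 1599.6 at 6 h (log2 change -1.79 ± 0.11, adjusted p = 1.42e-07), its partner Skp2 819 and 726 at 0 h and 252 and 253 at 6 h (log2 change -1.58 ± 0.16, adjusted p = 1.27e-05) and the ligase Siah2 147 and 112 at 0 h and 1256 and 1048 at 6 h (log2 change 3.08 ± 0.18, adjusted p = 8.57e-08).

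For lysosome, V-ATPase and autophagy genes 4 of 41 tested members were called higher and 7 lower (median log2 change -0.09). The autophagy receptor Sqstm1 rose by 0.76 and Gusb, a lysosomal enzyme, fell by 0.97. In vesicle trafficking, 5 of 57 tested members were called higher and 7 lower (median log2 change -0.04), with Trappc1, of a tethering complex, at -1.59. Its higher count was 2 and 3 without the first and the second 0 h array, 3 without either 6 h array, and its lower count was 13 with the same median. Among hypoxia and glycolysis genes 7 of 31 tested members were called higher and 4 lower (median log2 change 0.04). Ndrg1, a stress-induced gene, read 722 and 563 at 0 h and 2909.7 and 2643 at 6 h (log2 change 2.11 ± 0.13, adjusted p = 1.26e-07) and hexokinase Hk2 449.8 and 481 at 0 h and 1137 and 1075 at 6 h (log2 change 1.24 ± 0.14, adjusted p = 2.75e-05). The glycolytic enzymes Pgam1, Ldha and Tpi1 fell by 1.03, 0.56 and 0.54, so the calls within glycolysis went both ways. Hif1a had 3372 and 3954 at 0 h and 3407 and 4824 at 6 h (log2 change 0.15 ± 0.17, adjusted p = 0.57).

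**Figure D3:**
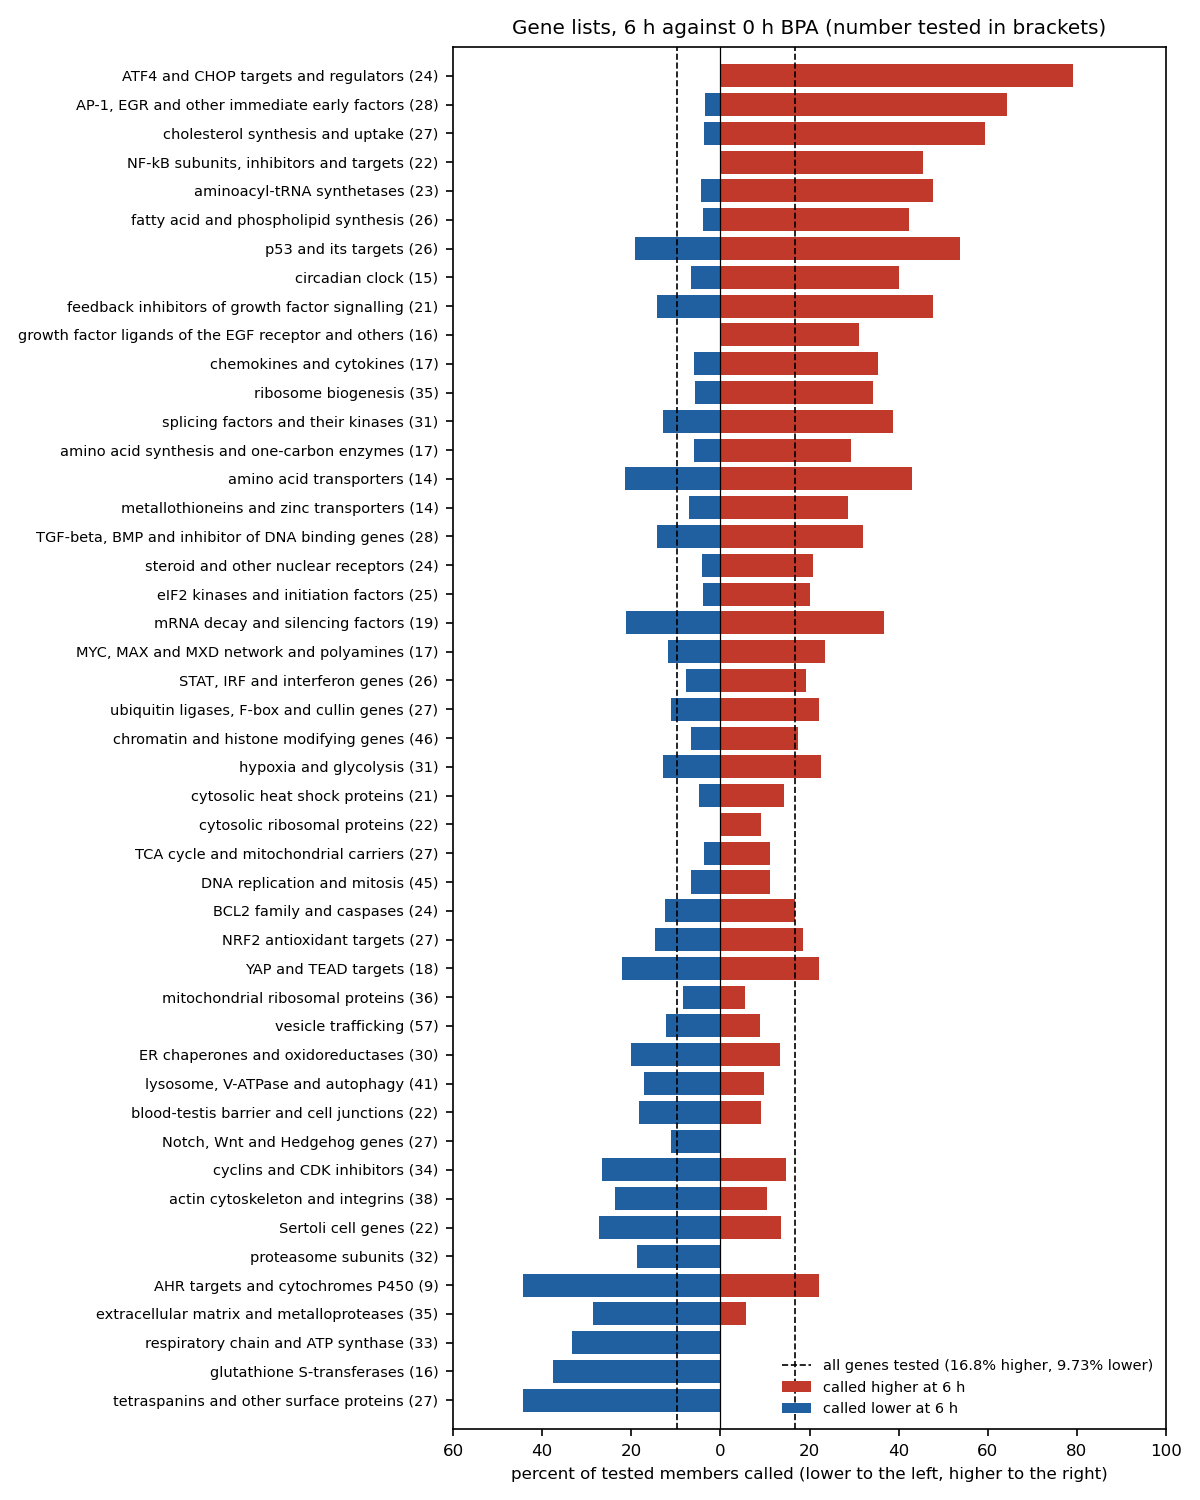
Percent of tested members called higher (red, to the right) and lower (blue, to the left) at 6 h for each of 47 gene lists, with the number tested in brackets; dashed lines mark the 16.8% called higher and 9.73% called lower among all genes tested. The ATF4 and CHOP list extends farthest to the right (19 of 24), and the respiratory chain, glutathione S-transferase and surface protein lists are among those with no red bar.

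Sertoli cell genes were checked as the identity of the line and as an outcome. Clu, clusterin, had signals of 7747 and 7554 at 0 h and 4765 and 4733 at 6 h (log2 change -0.69 ± 0.11, adjusted p = 0.000704). Of the 12 Sertoli markers 11 were on the array and 7 were tested; Amh, Fshr, Cldn11 and Dhh were below the filter, with signals between 0.4 and 58.0 on the 4 arrays, so these defining markers of the cell type were at or near background in the line. Sox9 read 26.2 and 60.9 at 0 h and 187 and 114 at 6 h (log2 change 1.67 ± 0.36, adjusted p = 0.00407), at low signal, Gata4 710.5 and 532 at 0 h and 858 and 824 at 6 h (log2 change 0.45 ± 0.14, adjusted p = 0.0362) and Wt1 174 and 153 at 0 h and 157 and 218 at 6 h (log2 change 0.17 ± 0.26, adjusted p = 0.679), the last with overlapping groups. The other Sox9 probe set was at -0.60, and under the probe set mean the calls were lost for Sox9 (0.53, adjusted p = 0.195) and Gata4 (0.34, adjusted p = 0.0622). Inha, a further marker, was at 0.55 (adjusted p = 0.27). Of the 7 markers tested 2 were called higher and 1 lower, with changes from -0.83 to 1.67. In the wider list of Sertoli cell genes 3 of 22 tested members were called higher and 6 lower (median log2 change 0.02), with 3 called lower without the first 0 h array. Among blood-testis barrier and cell junction genes 2 of 22 tested members were called higher and 4 lower (median log2 change -0.08). Tjp1, of the tight junction, read 1684 and 1734 at 0 h and 2322 and 2266 at 6 h (log2 change 0.42 ± 0.10, adjusted p = 0.00928), the gap junction gene Gja1 2067 and 1918 at 0 h and 2169.5 and 2689 at 6 h (log2 change 0.28 ± 0.12, adjusted p = 0.112) and N-cadherin, Cdh2, 2338 and 2966 at 0 h and 1432 and 2163 at 6 h (log2 change -0.58 ± 0.17, adjusted p = 0.022). The lower count was 1 without the second 0 h array or the first 6 h array, and calls were lost for Tjp1 without either 0 h array (adjusted p up to 0.0771), for Cdh2 without the second 0 h array or the first 6 h array (adjusted p up to 0.216) and for Gata4 without the second 0 h array or either 6 h array (adjusted p up to 0.353). The probe set mean ended that of Cdh2 (-0.34, adjusted p = 0.128).

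Markers of other testis cells were mostly at background. The summed signal of 8 peritubular and fibroblast markers was 9701 and 9648 at 0 h and 6206 and 5734 at 6 h. Most of it was Dcn, with 8440.4 and 8423 at 0 h and 5306 and 4892 at 6 h. Of the 5 tested, 2 were called lower, Dcn and Col1a1, the latter not under the probe set mean. None of the 5 was called higher, though their changes reached up to 1.15 (median -0.20). Of 5 Leydig markers on the array only Star was tested and it was called lower, and Cyp17a1 had signals of 4.6 and 7 at 0 h and 12.1 and 5.5 at 6 h. Of 10 germ cell markers 2 were tested, and Kit was called lower, with 568 and 523 at 0 h and 350.2 and 329 at 6 h. None of the 4 macrophage and 2 endothelial markers tested was called; their summed signals were 736 and 722 at 0 h and 740.3 and 668 at 6 h for macrophages, and 263 and 257 against 338 and 248 for endothelial cells. The samples are of the TTE3 line and not of testis tissue. Fewer cells with a given mRNA and less of it per cell cannot be told apart in these bulk samples. Their part in the falls of matrix genes was not tested.

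The 6 h arrays also differed from those of 3 h, though in few genes: 49 were called higher (0.565%) and 48 lower (0.553%), 97 in all or 1.12% of the genes tested. These comparisons share the 6 h arrays with the one against 0 h. The count was 30 and 39 without the first and the second 3 h array, and 59 without the first 6 h array. Without the second 6 h array 75 were called lower. Under the other scalings the split was 50 and 55 after quantile normalization and 50 and 42 with the same median. Among the genes that were higher at 6 h than at 3 h, Trib3 had a mean signal of 680.1 ± 7.28 at 3 h and 1869 ± 117 at 6 h (log2 change 1.45 ± 0.12, adjusted p = 6.18e-05), Asns 968 ± 49.5 and 2327 ± 37.5 (log2 change 1.26 ± 0.11, adjusted p = 9.85e-05), and Ero1a 310.0 ± 12.6 and 742 ± 46.8 (log2 change 1.24 ± 0.15, adjusted p = 0.00163). Their 6 h levels were above both earlier times. Slc7a11, Vegfa, Socs2, Cxcl10 and the endothelial nitric oxide synthase gene Nos3 were higher by 1.70, 1.17, 1.72, 1.70 and 0.96. Of the 24 ATF4 and CHOP genes tested 5 were called higher and 0 lower in this step.

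Several immediate early genes and feedback inhibitors had come down from their 3 h level by 6 h. Ccn2, a connective tissue growth factor gene, had a mean of 1778 ± 256 at 0 h, 5549 ± 291 at 3 h and 1825 ± 215 at 6 h (log2 change -1.60 ± 0.13, adjusted p = 6.18e-05). Adamts1, a metalloprotease, went through 666 ± 2.33, 1901 ± 55.1 and 839 ± 10.3 (log2 change -1.17 ± 0.16, adjusted p = 0.00258), and the orphan receptor Nr4a1 through 246 ± 26.3, 1784 ± 70.9 and 877 ± 93.6 (log2 change -1.02 ± 0.14, adjusted p = 0.00248). Ccn2 and Adamts1 were not called against 0 h at 6 h, whereas Nr4a1 was still above it. Errfi1, Dusp6, Ankrd1, Klf6 and Spry2, feedback inhibitors and early genes, were lower than at 3 h by values of -0.89, -0.93, -1.10, -0.98 and -0.69. Of 28 immediate early genes tested, 1 was called higher than at 3 h and 4 lower, and of 21 feedback inhibitors 2 and 6. Fos, Klf10 and Egr1 were at 0.14, 0.27 and -0.43 between these times and were not called. Sgk1, a kinase of ion transport, was below its 0 h level at 6 h and above it at 3 h: it had means of 1214 ± 19.2, 1792 ± 69.1 and 646 ± 203 (log2 change -1.50 ± 0.18, adjusted p = 0.00163).

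From 6 h to 12 h, 80 genes were called higher (0.922%) and 334 lower (3.85%), 414 in all or 4.77%. Without the first 12 h array 154 were called, 20 higher and 134 lower. With arrays scaled to the same median 184 were called higher and 199 lower (48.0% of calls higher against 19.3%), so this split depends on the scaling; after quantile normalization it was 85 and 248 (25.5%). Without the second 6 h array 129 were called higher, and without the second 12 h array 45; without the first 6 h array 219 were called lower. Lpin1 was the only gene that met the rule for a peak at 6 h (called in all 3 comparisons with 0, 3 and 12 h, above the median signal, and with both 6 h arrays above the others): it had means of 433 ± 37.6, 1286 ± 239.5, 2054 ± 123 and 1224 ± 22.8 at 0, 3, 6 and 12 h, with log2 change 0.68 ± 0.14, adjusted p = 0.0306 from 3 h to 6 h and log2 change -0.74 ± 0.14, adjusted p = 0.00866 from 6 h to 12 h. Both its 6 h arrays, at 1968 and 2141, lay above the other 6 arrays, as they did in 4.06% of the genes tested; in 1.97% both lay below. No gene met the matching rule for a trough. Fos, Bhlhe40 and Thbs1, a matrix glycoprotein, were lower at 12 h than at 6 h by values of -1.10, -1.34 and -2.05, and Hspa5, Hmox1 and Cxcl10 higher by 0.99, 1.73 and 2.08. Hspa5 thus read 9782 ± 1508 at 6 h and 19471 ± 3109.9 at 12 h (log2 change 0.99 ± 0.13, adjusted p = 0.00185).

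**Figure D4:**
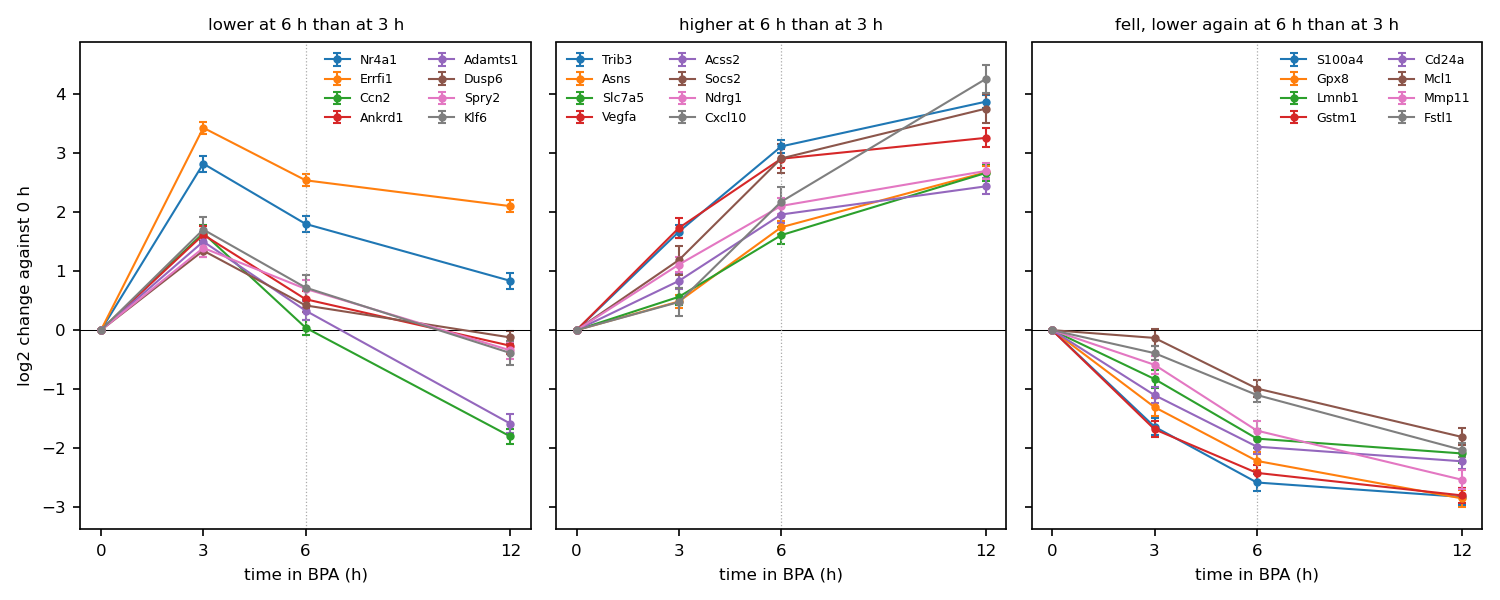
Log2 change against 0 h (vertical axis) at 3, 6 and 12 h in BPA (horizontal axis, h) for 24 genes; points are estimates from 2 arrays a time, bars are standard errors, and 0 h is set to 0. Genes on the left were called lower at 6 h than at 3 h (Ccn2 by a value of -1.60), those in the middle higher (Trib3 by 1.45), and those on the right were called lower at 6 h than at both earlier times (S100a4 at -0.95 from 3 h).

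A gene's other probe sets, which read other stretches or neighbours of its transcripts, gave a second view of the same RNA. Of 647 genes called higher that had another probe set, the next strongest one went the same way in 557 and showed at least 0.5 of the change in 441. For 408 genes called lower the counts were 358 and 290. Among genes changed by at least 2-fold they were 123 and 99 of 136 upwards, and 42 and 38 of 44 downwards. Taf1d, called higher at 2.71, had 4 other probe sets, at 1.95, -0.17, -0.48 and -1.44, and its probe set can bind several transcripts. Under the probe set mean the call was lost for Taf1d (0.51, adjusted p = 0.149). Mt1 had a second probe set with signals of 13.8 and 29.2 at 0 h and 372 and 403 at 6 h, at 3.80 against 1.44 for the brighter one. Skp2 had 4 further probe sets between -1.15 and -1.07 and 1 at 0.22. Snhg1 had 2 at 1.26 and 1.23 and 2 dimmer ones at -0.74 and -1.19.

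**Figure D5:**
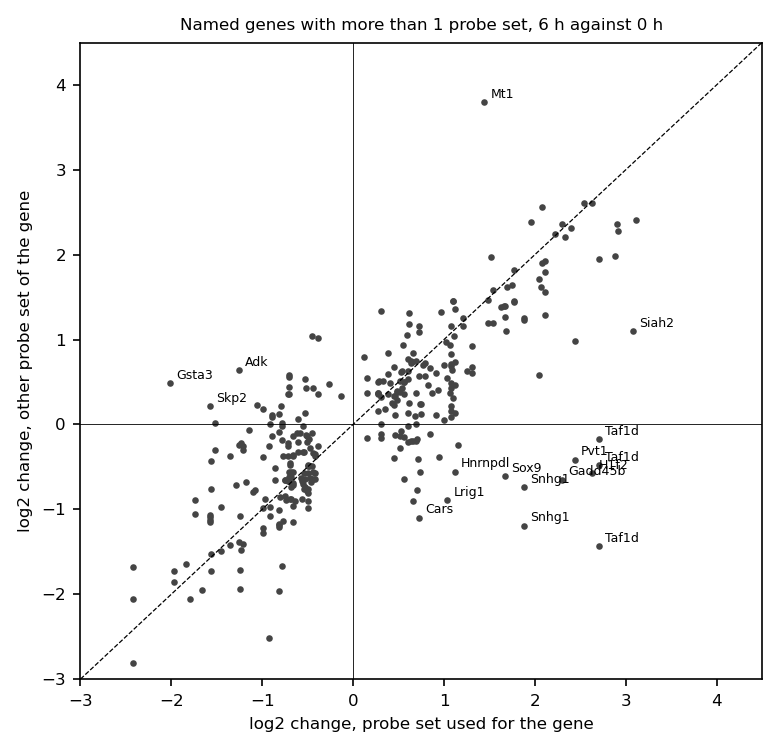
Log2 change from 0 h to 6 h of the other probe sets of a named gene (vertical axis) against that of the probe set used for it (horizontal axis); each point is 1 of 333 probe sets of 189 genes, and the dashed line marks equal change. Of these, 270 have the same sign as the probe set used, and Taf1d, Mt1, Cars and Snhg1 hold points far from the line.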

How the data were processed

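Total RNA of TTE3 cells was measured on 8 Affymetrix arrays, 2 for each of 0, 3, 6 and 12 h in 0.2 mM BPA. The deposited values are probe set intensities on a linear scale, already normalized by the authors: the mean trimmed by 2% at each end was 499.96 on every array. The summary software is not given in the sources used here. Probe sets were named from GEO's platform annotation, with symbols updated through RefSeq for 20351 of 20380 probe sets with 1 symbol. A further 691 had several symbols and 1555 none, and 64 controls were left out.

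Signals were used as log2(signal + 7.9), where the added constant is percentile 10 of the signals. After removal of the genes in the lowest 30 percent by mean log2 signal, the 8 arrays entered 1 model in R 4.3.3, by means of limma 3.58.1 (lmFit, then eBayes with an intensity trend, 4 residual and 9.00 prior degrees of freedom), with Benjamini-Hochberg adjustment and calls under 0.05. No 2 arrays held identical values. The method was tested on simulated data.

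Members and gene lists were chosen with earlier results of these data known. Genes were named by rule: the 20 largest rises and 20 largest falls among brighter called genes, up to 12 peaks and 12 troughs at 6 h, up to 5 called members of each of 47 lists with those going against most of their list, and 32 fixed genes, of which 28 were on the array. A further 31 were named after their values were seen. The other fixed genes were not analysed here. Some probe sets used, such as those of Gstm1, Mcl1, Mt1, Ndrg1, Mvd and Lss, can bind several transcripts. Alternatives covered the offset, the filter, the normalization, the intensity trend, the arrays fitted, the replicate number as a block, the mean of a gene's probe sets, and each array left out in turn.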

Additional observations from a re-analysis of the deposited data

Results flagged for a closer look

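In 3 named genes the change against 0 h was called in opposite directions at 6 h and at a neighbouring time, and the limma contrast between these times was called too. Dusp10, a MAP kinase phosphatase, was at 0.889 at 3 h and -0.495 at 6 h, a difference of -1.383 on the log2 scale. Its 6 h call against 0 h was lost without either 0 h array or the second 6 h array, and under the probe set mean. Thbs1, a matrix glycoprotein, was at 0.428 at 3 h and -0.574 at 6 h, a difference of -1.002. Amotl2, a YAP inhibitor, was at 0.805 at 6 h and -0.491 at 12 h, a difference of -1.296. These comparisons share the 0 h arrays.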

How the results depend on the processing

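The count of 2299 genes called between 0 h and 6 h ranged from 1377 to 2078 with 1 array left out. For 6 h against 3 h (97 genes) it ranged from 30 to 129, and was 56 with no filter, 6 with no intensity trend and 61 with only the 4 arrays compared. For 12 h against 6 h (414 genes) it ranged from 154 to 428, and was 274, 114 and 173 under the same 3 settings. With the replicate number as a block the counts were 2600, 226 and 703; same-numbered arrays of 0 h and 6 h correlated at 0.047 in their deviations from the group means, and all pairs of times lay between -0.011 and 0.122, so the numbers were not taken to pair the arrays. With the mean of all probe sets of a gene, 5 changes reversed in sign: Klf9 to 0.008, Mrpl11 to 0.001, Cars to -0.186, Bub3 to 0.183 and Spry2 to -0.039. This mean gives dim probe sets the same weight as bright ones. Brighter other probe sets kept the sign in Klf9 (-0.623 and -0.557), Mrpl11 (-0.491) and Bub3 (-0.258), and those of opposite sign were dimmer. In Cars and Spry2 the other probe set had signals of at most 58.8 and 58.1 at 0 h and 6 h. Of the 316 named genes called, 198 kept their call and direction under all 14 alternatives and 118 lost the call or the direction in at least 1; 4 of the 21 not called were called in at least 1. Low signals limit the precision: Slc7a11 and Ccl7, dim at 0 h, have standard errors of 0.37 and 0.28 against a median of 0.165 over all genes tested.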
